A study of Mus musculus with 20 samples.

Results

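Glucuronosyltransferases of the Ugt2 group were described in mouse liver tumours through 6 genes, Ugt2b1, Ugt2b5, Ugt2b34, Ugt2b35, Ugt2b36 and Ugt2a3. These 6 were a chosen list of names, measured by the probe sets that carried one of these symbols and no other. There were 7 such probe sets, 2 of them for Ugt2b34. The list does not hold every Ugt2 gene measured: Ugt2b37 and Ugt2b38 also had a probe set of their own and are given below with the other UGT genes. The members were 6 of 18193 genes measured, and their probe sets 7 of 45037. The list was chosen with earlier results of these data known. For Ugt2b34 the probe set with the higher mean over the 20 arrays (11.52 against 10.56) stood for the gene.

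UDP-glucuronosyltransferases sit in the membrane of the endoplasmic reticulum and join glucuronic acid, taken from UDP-glucuronate, to steroids, bilirubin, bile acids, drugs and other fat-soluble compounds. The products dissolve in water and leave the hepatocyte through export pumps into bile or blood. The 6 genes described here are separate genes that lie in 1 run, unlike the Ugt1a genes, which share their last exons, and hepatocytes are their main site of expression in liver.

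Arrays for 3' labelled RNA were run on snap-frozen liver tissue of male C57BL/6 mice that carried a conditional APCko allele, that is, a copy of Apc that can be removed on demand. Apc protein keeps beta-catenin, the effector of Wnt signals, low. Every group carried this allele, and no liver without it was analysed here. By the sample protocols each mouse received 0.75 mg of tamoxifen at the age of 6 weeks, while the text on the series names a dose of DEN, a liver carcinogen, and which of them was given was not settled. The diets began 1 week after the injection and lasted 9 months, either plain chow or food holding 0.05% phenobarbital, a drug that switches on the receptor CAR of hepatocytes. The labels do not say which promoter drives the recombinase. The 4 groups held 5 samples each. They were non-tumour liver without phenobarbital (H2O_NT, called untreated liver below), non-tumour liver with phenobarbital (PB_NT, phenobarbital liver), carcinomas of mice without phenobarbital (APCko_Carcinoma) and adenomas of mice on phenobarbital (APCko_Adenoma). Diet and tumour type differed together between the tumour groups, so their parts cannot be told apart there. The labels do not say whether samples of a group came from separate animals, so the tests measure the spread between these samples.

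Values are log2 expression values as deposited, and a difference of 1 is a factor of 2. Array medians ran from 5.52 to 5.63 and lower quartiles from 4.21 to 4.37. Arrays of a group correlated over the 18193 genes with r from 0.986 to 0.994 in untreated liver, 0.993 to 0.995 in phenobarbital liver, 0.956 to 0.988 in carcinomas and 0.969 to 0.986 in adenomas. Of 8 hepatocyte markers, 7 were measured, and their mean on an array was 13.85 to 14.15 in untreated liver, 13.58 to 13.74 in phenobarbital liver, 13.24 to 13.83 in adenomas and 6.78 to 11.06 in carcinomas. The carcinomas thus had hepatocyte markers below the range of every other group.

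In the RefSeq gene table (GRCm38.p6) all 6 members lie in 1 run on chromosome 5 in the order Ugt2b34, Ugt2b1, Ugt2b35, Ugt2b36, Ugt2b5 and Ugt2a3, with Ugt2b37 among them. The promoters are shown because the 6 genes lie together and fell together in the carcinomas below. RefSeq gave a promoter for all 6, taken as 250 bases before and 50 after the start site, and the 120 bases just before the start site are printed. They lie at chr5:86906938-86907057 for Ugt2b34, chr5:86926504-86926623 for Ugt2b1, chr5:87000740-87000859 for Ugt2b35, chr5:87092556-87092675 for Ugt2b36, chr5:87140341-87140460 for Ugt2b5 and chr5:87337196-87337315 for Ugt2a3 (GRCm38.p6). Ugt2b35 is on the plus strand and the other 5 are on the minus strand, and each sequence reads 5′ to 3′ along its gene. Capitals mark AGGTCA, a motif bound by many nuclear receptors.

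Ugt2b34: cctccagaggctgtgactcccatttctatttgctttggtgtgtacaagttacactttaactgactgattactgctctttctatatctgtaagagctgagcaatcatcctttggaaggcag
Ugt2b1: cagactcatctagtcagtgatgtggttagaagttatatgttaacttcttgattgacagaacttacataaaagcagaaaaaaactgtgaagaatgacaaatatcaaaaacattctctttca
Ugt2b35: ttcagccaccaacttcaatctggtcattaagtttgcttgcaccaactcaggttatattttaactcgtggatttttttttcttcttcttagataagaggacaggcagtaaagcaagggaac
Ugt2b36: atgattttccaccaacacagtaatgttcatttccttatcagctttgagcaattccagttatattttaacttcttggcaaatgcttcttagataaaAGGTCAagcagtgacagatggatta
Ugt2b5: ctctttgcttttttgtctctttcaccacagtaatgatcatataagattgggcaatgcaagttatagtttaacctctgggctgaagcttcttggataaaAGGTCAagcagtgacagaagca
Ugt2a3: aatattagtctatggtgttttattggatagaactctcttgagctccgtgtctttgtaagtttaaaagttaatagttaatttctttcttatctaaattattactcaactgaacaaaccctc

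The letters AGGTCA, searched on both strands of the 300 bases, were in 3 of 6 promoters (Ugt2b35, Ugt2b36 and Ugt2b5), against 16.3% of 32851 promoters in the table. The TCF/LEF letters CTTTGAT were in 0 of 6 (3.73% of all promoters) and the STAT5 letters TTCNNNGAA in 0 of 6 (8.3%). In Ugt2b36 and Ugt2b5 the match lies in the printed bases and begins 25 and 22 bases before the start site, and in Ugt2b35 it begins 215 bases before it, upstream of the printed bases. Ugt2b36 and Ugt2b5 share the bases next to the match on both sides, so their matches may not count as separate. Aligned over their 300 bases, promoters of 2 members were identical in 48.4% (Ugt2b35 and Ugt2a3) to 62.2% (Ugt2b5 and Ugt2b36) of columns.

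**Figure D1:**
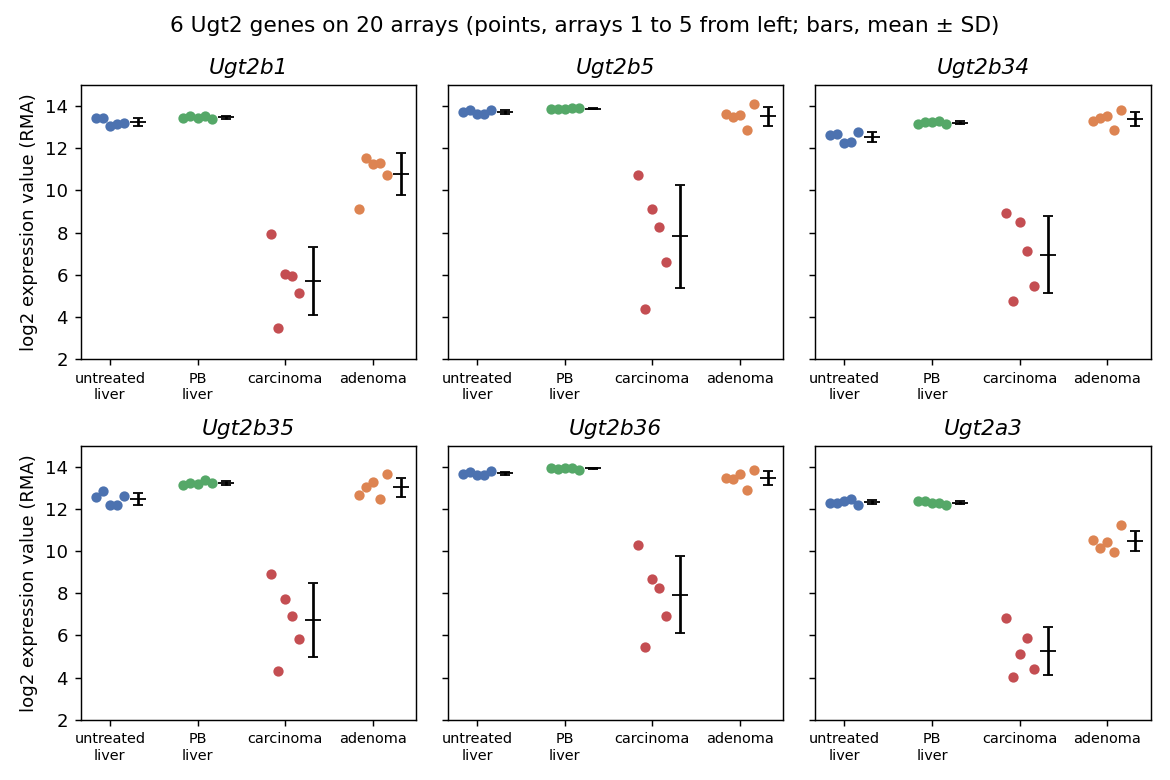
Log2 expression values of the 6 Ugt2 genes (vertical axis, 1 panel per gene) on the 20 arrays of 4 groups (horizontal axis); points are arrays and bars the mean ± SD of 5 arrays. Every carcinoma array lies below every array of the other 3 groups in each panel, and adenomas lie below both non-tumour groups for Ugt2b1 and Ugt2a3.

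Carcinomas against untreated liver ask how the tumours of mice without phenobarbital differ from liver of mice on the same diet. All 6 Ugt2 genes fell, by 5.57 to 7.55 on the log2 scale (limma, adjusted p from 1.3e-12 to 5.2e-07). Of all genes, 37.6% were lower by the same test, 31.4% higher and 68.9% different in either direction, so a fall alone was common. The median change was -5.83 over the members and -0.12 over all genes. Some carcinoma values were dim: the carcinoma mean was 5.70 for Ugt2b1 and 5.26 for Ugt2a3, near or below the array medians, and on array 2 all 6 members were below 5.52. No detection call was used here, so differences that rest on such values may understate the change.

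Ugt2b1 had the largest fall of the group. It read 13.42, 13.44, 13.03, 13.13 and 13.20 in untreated liver and 7.92, 3.46, 6.02, 5.96 and 5.13 in carcinomas, in the order of arrays 1 to 5. The highest carcinoma array lay more than 5 units below the lowest untreated array. The difference was -7.55 (SE 0.55, n = 5 and 5, limma adjusted p = 3e-10).

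Ugt2a3, whose human counterpart acts on bile acids, fell next. Its values were 12.28, 12.30, 12.39, 12.46 and 12.21 in untreated liver and 6.83, 4.05, 5.11, 5.87 and 4.43 in carcinomas, a difference of -7.07 (SE 0.36, limma adjusted p = 1.3e-12). On carcinoma array 2 both Ugt2b1 and Ugt2a3 lay below the lower quartile of that array's values.

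Ugt2b5 spread most between carcinomas. It read 13.72, 13.79, 13.62, 13.64 and 13.82 in untreated liver and 10.74, 4.36, 9.11, 8.27 and 6.61 in carcinomas, which is 13.72 ± 0.09 against 7.82 ± 2.44 (SD, n = 5 each). Its neighbour Ugt2b36 had a like pattern, with 13.67, 13.76, 13.61, 13.63 and 13.79 in untreated liver against 10.31, 5.45, 8.68, 8.27 and 6.94 in carcinomas. The ranges of the groups did not overlap in either gene, and the differences were -5.90 (SE 0.72) for Ugt2b5 and -5.76 (SE 0.54) for Ugt2b36.

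Ugt2b34 read 12.64, 12.68, 12.24, 12.30 and 12.77 in untreated liver and 8.91, 4.77, 8.49, 7.13 and 5.47 in carcinomas, a difference of -5.57 (SE 0.54). Ugt2b35 read 12.57, 12.84, 12.20, 12.19 and 12.62 against 8.93, 4.30, 7.71, 6.93 and 5.81, a difference of -5.75 (SE 0.54). In all 6 members every carcinoma array lay below every untreated array, a separation that 27.8% of all genes showed in that direction.

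The carcinomas kept the same order in most members. Array 1 was highest and array 2 lowest in all 6, and the order 1, 3, 4, 5, 2 held in the 5 Ugt2b genes, while Ugt2a3 ran 1, 4, 3, 5, 2. The distance between the highest and the lowest carcinoma was 6.39 for Ugt2b5, 4.15 to 4.87 for the other Ugt2b genes and 2.77 for Ugt2a3. Without array 2 the fall of Ugt2b5 was 5.04 on the log2 scale in place of 5.90, and without array 1 it was 6.63. Without array 2 and without array 1 respectively, the differences were -6.99 and -8.10 for Ugt2b1, -5.02 and -6.06 for Ugt2b34, -5.14 and -6.30 for Ugt2b35, -5.14 and -6.36 for Ugt2b36, and -6.76 and -7.46 for Ugt2a3. All 6 members passed the test without any single array.

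**Figure D2:**
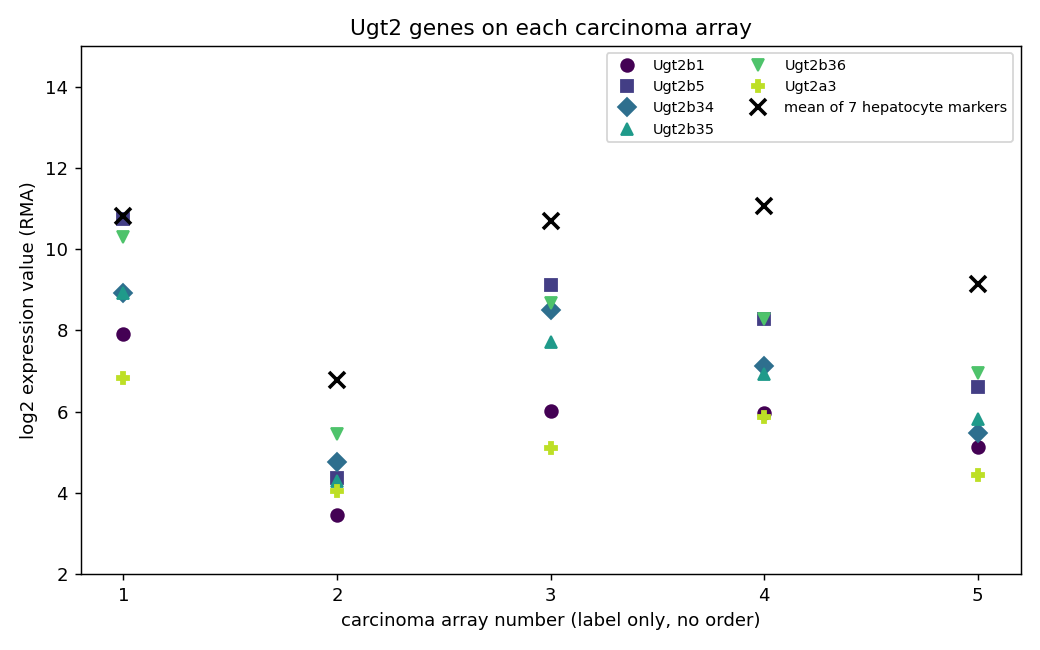
Log2 expression values (vertical axis) of the 6 Ugt2 genes and the mean of 7 hepatocyte markers on each of the 5 carcinoma arrays (horizontal axis, labels without order). All 6 genes are highest on array 1 and lowest on array 2, where the marker mean is also lowest at 6.78.

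Hepatocyte markers moved with this result. The 7 measured markers all fell, with a median change of -4.53, among them Apob, a lipoprotein component, at -5.91 and Tat, which breaks down tyrosine, at -5.51. Their mean on carcinoma arrays 1 to 5 was 10.81, 6.78, 10.69, 11.06 and 9.13, lowest on array 2 as for the members but highest on array 4. Of 5 measured cholangiocyte markers 2 rose and 0 fell, with array means of 5.73 to 7.04 in untreated liver and 6.77 to 8.62 in carcinomas. Stellate and fibroblast markers rose in 3 of 6 and fell in 1, with array means of 8.46 to 9.32 against 9.29 to 10.74. Endothelial markers fell in 5 of 6, and their mean on carcinoma arrays 1 to 5 was 6.17, 4.91, 6.02, 5.58 and 5.38, the order of arrays seen in the Ugt2b genes. Macrophage markers fell in 4 of 6 and rose in 1, and lymphocyte markers fell in 4 of 6 and rose in 2. The part of cell composition in the fall of the Ugt2 genes was not tested, and fewer hepatocytes and less RNA per hepatocyte cannot be told apart in whole tissue.

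The members did not fall by equal amounts. Of 15 pairs, 6 differed in their change (two-sided exact permutation test on the within-array difference of both genes, adjusted over 45 tests in 3 comparisons, adjusted p under 0.05, with 0.0079 as the smallest p possible). Ugt2b1 fell further than each other Ugt2b gene, with a difference in change from -1.65 against Ugt2b5 to -1.98 against Ugt2b34 (exact permutation, adjusted p = 0.015 each). Ugt2a3 fell further than Ugt2b34 by 1.49 (adjusted p = 0.015, exact permutation) and than Ugt2b36 by 1.31 (adjusted p = 0.041, exact permutation). The pair of Ugt2a3 and Ugt2b36 lost its call without untreated array 1, 3 or 4 (1.26 to 1.31, exact permutation adjusted p from 0.053 to 0.057). For Ugt2b1 minus Ugt2a3 it was -0.48 (adjusted p = 0.25, exact permutation).

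Adenomas against phenobarbital liver ask the same of the tumours that grew under phenobarbital. Here the group split: Ugt2b1 and Ugt2a3 fell, and the other 4 genes stayed between -0.46 and 0.18 and did not pass the test. By limma 2 of 6 members were lower and 0 higher, against 11.2% of all genes lower, 13.4% higher and 24.6% in either direction. The median change was -0.41 over the members and -0.03 over all genes. Hepatocyte markers passed the test in 0 of 7 (24.6% of all genes did), with a median change of -0.05, and 0 of 7 had an unadjusted p under 0.05 by limma, against 2 of 7 in a fit of these groups alone. Macrophage markers fell in 3 of 6, with array means of 7.91 to 9.19 against 9.12 to 9.56, and stellate and fibroblast markers fell in 3 of 6 and rose in 2. Their part in the changes of Ugt2b1 and Ugt2a3 was not tested.

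Ugt2b1 read 13.43, 13.55, 13.44, 13.54 and 13.38 in phenobarbital liver and 9.10, 11.54, 11.24, 11.30 and 10.74 in adenomas. All 5 adenomas were lower, and adenoma array 1 was the lowest. The difference was -2.69 (SE 0.55, limma adjusted p = 0.0013), 6.43 times lower, and without adenoma array 1 it was -2.26.

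Ugt2a3 read 12.39, 12.38, 12.29, 12.26 and 12.19 in phenobarbital liver and 10.51, 10.17, 10.45, 9.97 and 11.25 in adenomas. Again no adenoma reached the range of the liver samples. The difference was -1.83 (SE 0.36, limma adjusted p = 0.00087), 3.56 times lower. Ranked from the largest fall, Ugt2b1 was 65 and Ugt2a3 was 128 among all genes.

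The 4 genes that did not pass the test had adenoma values around those of liver. Ugt2b5 read 13.84, 13.87, 13.85, 13.91 and 13.90 in phenobarbital liver and 13.61, 13.46, 13.58, 12.84 and 14.11 in adenomas (difference -0.36, SE 0.72, limma adjusted p = 0.77). Ugt2b36 read 13.95, 13.88, 13.94, 13.96 and 13.86 against 13.47, 13.41, 13.65, 12.92 and 13.84 (difference -0.46, SE 0.54, limma adjusted p = 0.59). All adenomas lay below the liver samples in Ugt2b36, which made 3 of 6 members with that separation, against 8.99% of all genes, and a fit of these groups alone called it lower (SE 0.15, limma adjusted p = 0.04, with 11.1% of all genes lower).

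Ugt2b34 read 13.16, 13.22, 13.25, 13.28 and 13.14 in phenobarbital liver and 13.31, 13.45, 13.52, 12.87 and 13.81 in adenomas (difference 0.18, SE 0.54, limma adjusted p = 0.85). Ugt2b35 read 13.14, 13.21, 13.17, 13.39 and 13.23 against 12.68, 13.06, 13.27, 12.48 and 13.64 (difference -0.20, SE 0.54, limma adjusted p = 0.83). Adenomas lay on both sides of the liver samples in these genes, with array 4 lowest and array 5 highest.

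The second probe set of Ugt2b34 read 12.06 to 12.29 in phenobarbital liver and 12.24 to 13.36 in adenomas, a difference of 0.68 (SE 0.54, adjusted p = 0.44 by limma over all probe sets). The fit of these groups alone called it (limma adjusted p = 0.013) and did not call the first probe set (limma adjusted p = 0.42). In the carcinomas the probe sets gave -5.51 and -5.57, so they differed less there.

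**Figure D3:**
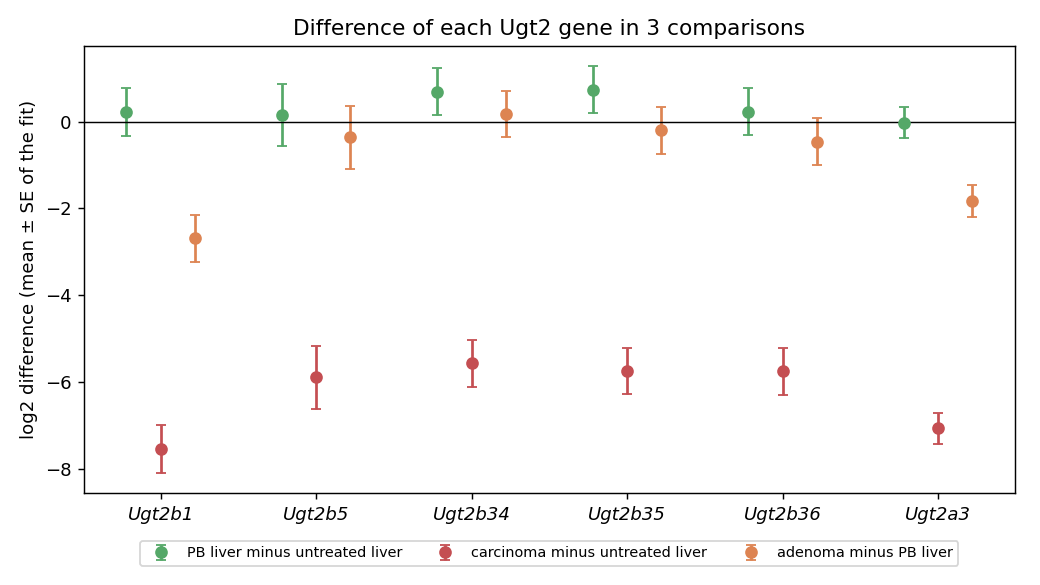
Log2 difference ± SE of the fit (vertical axis) of each Ugt2 gene (horizontal axis) in 3 comparisons, with 5 arrays per group. Carcinomas lie between -7.55 and -5.57 for all 6 genes, while adenomas are near 0 for 4 genes and at -2.69 and -1.83 for Ugt2b1 and Ugt2a3.

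The pairs were tested on the same arrays from which the split was read, so they restate it and are not separate evidence. Of 15 pairs 11 differed in their change between adenomas and phenobarbital liver. Ugt2b1 fell further than the other Ugt2b genes, with differences in change of -2.86 to -2.23, and Ugt2a3 fell further than Ugt2b5, Ugt2b34, Ugt2b35 and Ugt2b36 by 1.37 to 2.01 (exact permutation, adjusted p = 0.015 for each of these 8). Ugt2b5 minus Ugt2b34 gave -0.53, Ugt2b34 minus Ugt2b35 gave 0.38 and Ugt2b34 minus Ugt2b36 gave 0.64 (exact permutation, adjusted p = 0.015 each). For Ugt2b1 minus Ugt2a3 the difference was -0.86 (exact permutation, adjusted p = 0.26).

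Ugt2b1 also ordered the adenomas in its own way. It was highest on array 2 and lowest on array 1, whereas the other 5 members were highest on array 5 and lowest on array 4. The mean of 7 measured CAR target genes on adenoma arrays 1 to 5 was 11.41, 13.21, 12.46, 12.31 and 11.96, which is also highest on array 2 and lowest on array 1. This likeness was noticed after the values were seen and was not tested. Deviations from group means over 20 arrays, which the wide carcinoma spread dominates, correlated with r of 0.66 to 0.84 between Ugt2b1 and the others and 0.95 to 0.99 among the other 4 Ugt2b genes.

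**Figure D4:**
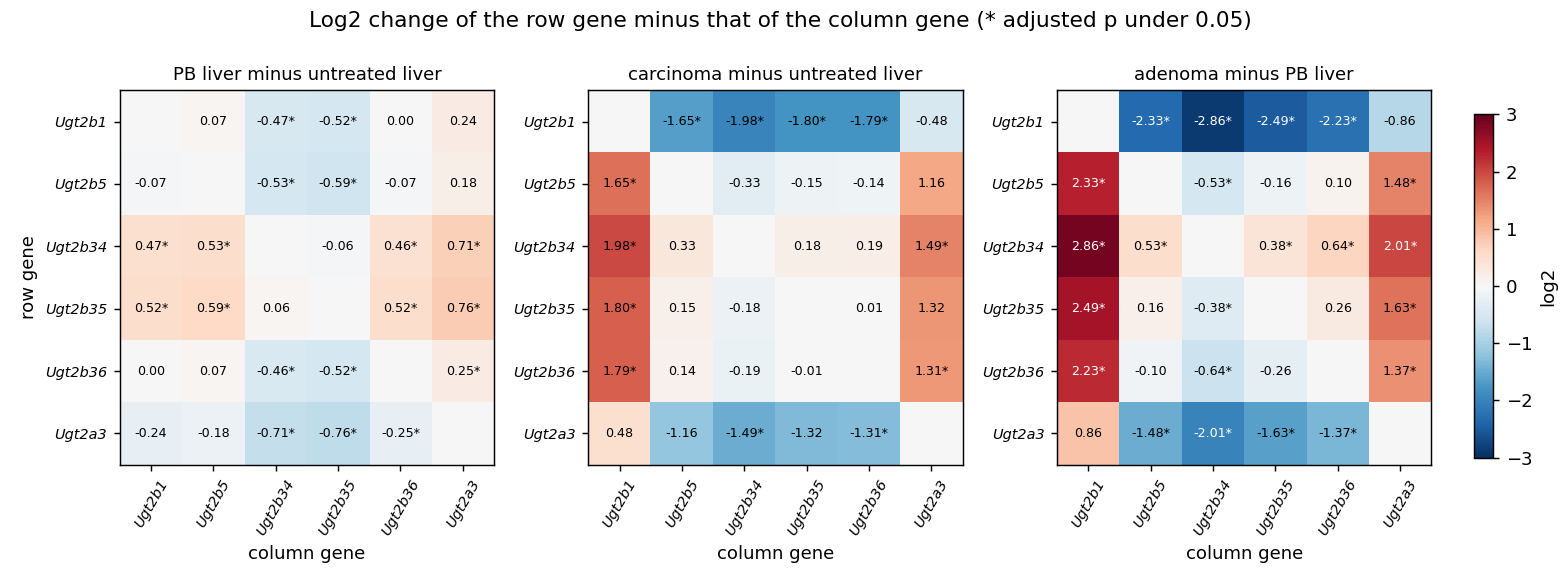
Differences in log2 change between members, row gene minus column gene, in 3 comparisons; colour runs from blue (row gene lower) to red (row gene higher) and stars mark an adjusted p under 0.05 by exact permutation. The rows of Ugt2b1 and Ugt2a3 are negative against the other 4 genes in both tumour comparisons, and those of Ugt2b34 and Ugt2b35 are positive against the other 4 in the phenobarbital comparison.

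The fall in carcinomas and the change in adenomas were set against each other in 1 term, the adenoma change from phenobarbital liver minus the carcinoma change from untreated liver. It was higher for all 6 members, from 4.86 (SE 0.78) for Ugt2b1 to 5.75 (SE 0.76) for Ugt2b34 (limma, adjusted p from 5.5e-08 to 0.00015), against 23.3% of all genes higher. Adenomas exceeded carcinomas directly by 5.08 to 6.44 in all 6 members, with 33.6% of all genes higher. The value of 6.44 was that of Ugt2b34. Against untreated liver, Ugt2b1 differed in adenomas by -2.46 and Ugt2a3 by -1.85, both called lower (11.5% of all genes lower). Ugt2b34 differed by 0.87 without passing the test (limma adjusted p = 0.27), and a fit of these groups alone called it higher (limma adjusted p = 0.0042, with 12.1% of all genes higher). The second probe set of Ugt2b34 differed by 1.5 on the log2 scale (SE 0.54, adjusted p = 0.058 by limma over all probe sets). It passed the test in a fit of these groups alone (limma adjusted p = 0.00021), with quantile normalization (limma adjusted p = 0.042), with array weights (limma adjusted p = 0.036), and without carcinoma array 1, 2, 3 or 5 (limma adjusted p from 0.016 to 0.041).

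Phenobarbital liver against untreated liver asks what the diet did outside tumours. None of the 6 Ugt2 genes passed the test in the fit over all 4 groups, in which 39 genes or 0.214% did, and the 6 differences ran from -0.02 for Ugt2a3 to 0.74 for Ugt2b35. The standard error in the fit over all groups was 0.36 to 0.72, since it takes in the spread of the carcinomas. At an unadjusted p under 0.05 the limma fit over all groups also called 0 of 6, and a fit of the 10 non-tumour arrays alone 5 of 6. The share of all genes at that threshold is not given here, so these counts are not read as particular to the members. In 4 members, Ugt2b5, Ugt2b34, Ugt2b35 and Ugt2b36, every phenobarbital array lay above every untreated array, against 2.39% of all genes.

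In a fit of the 10 non-tumour arrays alone, Ugt2b34 and Ugt2b35 rose. Ugt2b34 spanned 12.24 to 12.77 without the drug and 13.14 to 13.28 with it, a difference of 0.69 (SE 0.11, limma adjusted p = 0.0074), 1.61 times higher. Ugt2b35 spanned 12.19 to 12.84 and 13.14 to 13.39, a difference of 0.74 (SE 0.12, limma adjusted p = 0.011), 1.67 times higher. In this fit 1.02% of all genes were higher and 1.46% differed in either direction. Markers of cell types moved beside this result. The mean of the hepatocyte markers was 13.85 to 14.15 without and 13.58 to 13.74 with phenobarbital, ranges that did not overlap (median change -0.25). The mean of the macrophage markers was 8.44 to 9.54 and 9.12 to 9.56 (median change 0.45). By limma 0 of 7 and 0 of 6 markers passed the test in either fit. In the limma fit of the 10 arrays 5 markers of each list had an unadjusted p under 0.05, given without the share of all genes. Their part in the rise of Ugt2b34 and Ugt2b35 was not tested.

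Untreated arrays 3 and 4 were the lowest of their group in all 5 Ugt2b genes and the highest in Ugt2a3. Without both, the same fit gave 0.52 for Ugt2b34 (limma adjusted p = 0.007) and 0.55 for Ugt2b35 (limma adjusted p = 0.015). Leaving out each of the 10 arrays in turn gave 0.61 to 0.75 and 0.67 to 0.83, and both genes passed the test each time. The second probe set of Ugt2b34 differed by 0.82 (limma adjusted p = 0.0031 in the fit of these groups alone).

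The other 4 members differed by less. Ugt2b5 differed by 0.16 and Ugt2b36 by 0.23, and Ugt2b1 differed by 0.22 with overlapping ranges. Ugt2a3 spanned 12.21 to 12.46 without and 12.19 to 12.39 with phenobarbital (difference -0.02). In the fit of the 10 arrays these 4 had limma adjusted p of 0.32, 0.12, 0.31 and 0.93. Both Ugt2b34 and Ugt2b35 changed more, by 0.46 to 0.76, than each of the other 4 (exact permutation, adjusted p = 0.015 for each of 8 pairs), and with Ugt2b36 against Ugt2a3 (0.25, exact permutation adjusted p = 0.041) 9 of 15 pairs differed. That last pair lost its call when any of 9 of the 10 arrays was left out. The 8 pairs were tested on the same arrays from which the rise of Ugt2b34 and Ugt2b35 was read. They restate that rise and are not separate evidence. Untreated means were 12.52 for Ugt2b34 and 12.49 for Ugt2b35. They were higher for Ugt2b1, Ugt2b5 and Ugt2b36 (13.25, 13.72 and 13.69) and 12.33 for Ugt2a3. How far the top of the array's scale limits a rise in bright genes was not tested.

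Known targets of CAR show the size of the diet response. Cyp2b10, the classical target among cytochromes P450, rose by 5.62 and Cyp2c55 by 3.57 (2 of 7 measured targets, against 0.192% of all genes higher), and the other 5 did not pass the test in the fit over all groups. The fit of the 10 non-tumour arrays alone called 5 of 7, all higher, against 1.02% of all genes. In the adenomas Cyp2b10 fell by 2.41 and Cyp2c55 fell by 1.94 against phenobarbital liver, while Ephx1, an epoxide hydrolase, rose by 0.47. The fall was uneven: Cyp2b10 read 7.64, 13.22, 11.01, 12.46 and 9.24 on adenoma arrays 1 to 5. It spanned 12.97 to 13.46 in phenobarbital liver and 6.56 to 8.90 in untreated liver. Cyp2c55 spanned 9.15 to 12.11 in adenomas and 12.23 to 12.87 in phenobarbital liver.

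Among groups ordered by mean, carcinomas came last in all 6 members. Phenobarbital liver came first in Ugt2b1, Ugt2b5, Ugt2b35 and Ugt2b36, adenomas first in Ugt2b34, and untreated liver first in Ugt2a3. Neighbouring groups overlapped between phenobarbital and untreated liver for Ugt2b1 and Ugt2a3, between untreated liver and adenomas for Ugt2b5 and Ugt2b36, between adenomas and phenobarbital liver for Ugt2b34, and among those 3 groups in both steps for Ugt2b35.

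Of 15 other UGT genes listed, 5 had a probe set of their own. All 5 fell in carcinomas (37.6% of all genes did), and in adenomas 1 fell. Ugt3a2 fell by 5.97 in carcinomas and differed by 0.10 in adenomas (limma adjusted p = 0.91). Ugt3a1 fell by 5.09 in carcinomas and fell by 2.39 in adenomas. Both belong to a related family that uses other sugars than glucuronic acid, and both ordered the carcinomas as Ugt2a3 did. The carcinoma change was -1.78 in Ugt2b37, -3.58 in Ugt2b38 and -0.92 in Ugt8a, which makes a brain lipid. Ugt2b37 and Ugt8a were dim already in untreated liver, with means of 5.18 and 5.01, below the array medians. Their changes may therefore be understated. Ugt2b38 spread widely in untreated liver, from 7.01 to 10.65, and its difference of -2.02 with phenobarbital did not pass the test (limma adjusted p = 0.26). The Ugt1a genes share 3 probe sets that each carry 8 symbols and were not analysed here.

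Genes beside the run on chromosome 5 moved in their own ways. Sult1b1, a sulfotransferase that follows the run and conjugates some of the same kinds of compounds, fell by 5.43 in carcinomas and fell by 0.89 in adenomas (limma adjusted p = 0.0037). Ythdc1, a reader of methylated RNA before the run, rose by 0.58 in carcinomas and had no called difference in adenomas (0.17, limma adjusted p = 0.23). Tmprss11f and Tmprss11e, serine protease genes also before it, differed by -0.08 each in carcinomas, with group means of 3.24 to 3.51.

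The 4 listed genes of UDP-glucuronate supply all fell in carcinomas. The change was -1.73 for Ugp2, which makes UDP-glucose, -2.55 for Ugdh, which oxidises it, -3.15 for Slc35d1, a carrier of UDP-glucuronate, and -3.94 for Entpd5, which clears UDP in the endoplasmic reticulum. In adenomas Ugdh rose by 0.57 (SE 0.18, limma adjusted p = 0.023), and the other 3 lay between -0.42 and 0.13 without passing the test. The list's mean on an array was 8.77 to 9.16 in carcinomas and 11.61 to 12.72 in the other groups, so it spread much less among carcinomas than the members did.

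Genes that cleave or carry glucuronides were measured for all 8 listed. In carcinomas 6 fell, 1 rose and Gusb, the beta-glucuronidase, differed by 0.23 (limma adjusted p = 0.22). Ces1e, an esterase that holds Gusb in the endoplasmic reticulum, fell by 7.02, Slco1b2, an uptake carrier, fell by 6.10, and Abcc2, the export pump into bile, fell by 5.38. The change was -5.35 in Slco1a1, another uptake carrier, -4.38 in Abcc3, a pump into blood, and -1.29 in Abcg2. Abcc4, another pump into blood, rose by 4.66 in carcinomas, by 3.39 with phenobarbital in non-tumour liver and by 1.61 in adenomas against phenobarbital liver. In adenomas Ces1e fell by 2.73, Slco1a1 fell by 2.51 and Abcc3 fell by 1.00, and the other 4 did not pass the test.

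**Figure D5:**
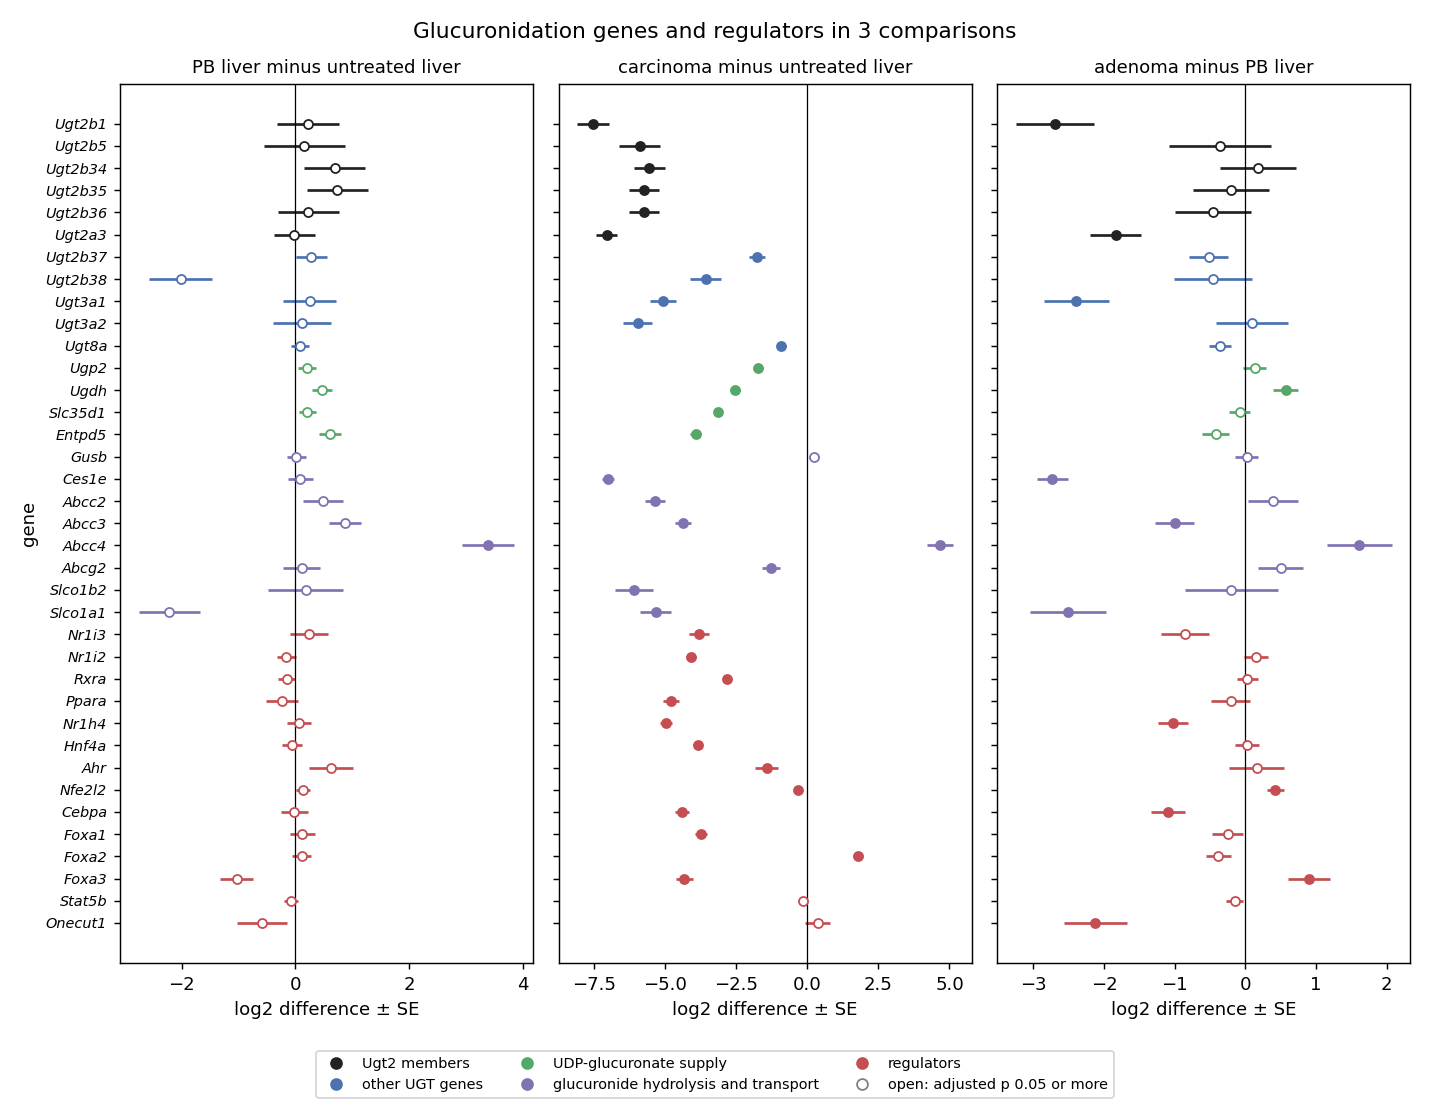
Log2 difference ± SE of the fit (horizontal axis, its scale set per panel) of the 6 Ugt2 genes, other UGT genes, genes of UDP-glucuronate supply, of glucuronide cleavage and transport, and regulators (vertical axis) in 3 comparisons; filled points passed the limma test at an adjusted p under 0.05. All members are filled and far below 0 in carcinomas, 2 are filled in adenomas and 0 with phenobarbital, while Abcc4 is filled above 0 in all 3 panels.

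The route from glucuronate to ascorbate, which draws on the same sugar, had 7 listed genes, all measured. In carcinomas 6 fell, with Xylb at -5.66 and Rgn at -5.01 the lowest. In adenomas Cryl1 fell (7.98 times lower) and Dcxr fell by 1.56, both enzymes of the branch toward pentoses, and Gulo, which makes ascorbate in mice, rose by 1.23. With phenobarbital 0 of 7 passed the limma test (0.214% of all genes did), and 1 had an unadjusted p under 0.05.

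Of 15 regulators listed, 14 were measured. In carcinomas 11 fell and Foxa2, a forkhead factor, rose by 1.79. The largest changes were -4.98 in Nr1h4, the bile acid receptor, -4.80 in Ppara, the fatty acid receptor, and -4.42 in Cebpa. Hnf4a, a nuclear receptor that sets hepatocyte identity, changed by -3.87, Nr1i3, which encodes CAR, by -3.82, and Nr1i2, which encodes PXR, by -4.10. In adenomas Onecut1 fell by 2.12, Cebpa fell by 1.09 and Nr1h4 fell by 1.02, Foxa3 rose by 0.90 and Nfe2l2 by 0.42, and Hnf4a differed by 0.03 (limma adjusted p = 0.91). The mean of Foxa3 was 9.74 in untreated liver, 8.72 in phenobarbital liver and 9.61 in adenomas, so adenomas did not exceed untreated liver. With phenobarbital 0 of 14 passed the limma test, against 0.214% of all genes, 1 had an unadjusted p under 0.05, and the fit of the non-tumour arrays alone called 2.

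The genes most like each member over the 20 arrays were found by Pearson r, as a description, since all share the 4 groups. For Ugt2a3 they were Cebpa (0.997), Ndrg2 (0.996) and Haao (0.996). For Ugt2b1 they were Hsd17b13, a lipid droplet protein (0.984), Afm (0.982) and Gstz1 (0.980). Each was called lower in adenomas (-2.83, -1.27 and -1.31), whose arrays were among those used to choose them. For Ugt2b5 they were Akr1c14 (0.996), Rgn (0.995) and Mgst1 (0.995), for Ugt2b36 Aldh1a7 (0.997), Akr1c14 (0.996) and Pon1 (0.996), for Ugt2b34 Ces1g (0.993), Cyp2d10 (0.990) and Ces1c (0.990), and for Ugt2b35 Cyp2d10 (0.995), Cyp2d9 (0.994) and Akr1c14 (0.993). Akr1c14, a hydroxysteroid dehydrogenase, stood in 3 of these lists and fell by 5.97 in carcinomas, with a difference of -0.24 in adenomas.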

How the data were processed

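The authors deposited log2 expression values for 45037 probe sets on 20 arrays, and RMA is the tool named in the submitters' processing notes. RMA makes the arrays' distributions alike, so a shift of all genes would be removed, and dim values compress. Of the probe sets 34945 had a single gene symbol; a gene took its probe set with the highest mean, after those ending in _x_at were dropped where another existed. The number of arrays limits the precision.

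Genes were tested with limma 3.58.1 in R 4.3.3 (1 fit over 4 groups, 16 residual degrees of freedom, Benjamini-Hochberg over 18193 genes within a comparison, threshold 0.05), checked on simulated data. The simulation gave all groups the same spread, so it does not cover the wider spread of the carcinomas. SE is that of the fit, which shares 1 spread among the groups. For the members it may be too small where carcinomas are compared and too large where they are not. Pairs of members used exact permutation in Python 3.11.15. Counts at an unadjusted p are given without the share of all genes at that threshold, so they are not read as particular to a list. Alternatives are in the closing section.

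The members and gene lists were chosen with earlier results of these data known. Named genes were all members, measured genes of the UGT, supply, transport and regulator lists, up to 2 rising and 2 falling called genes of other lists, the 3 genes most like each member, and genome neighbours. Probe sets with several symbols were left unnamed. A listed regulator and the promoter letters tied to it are not reported here.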

Additional observations from a re-analysis of the deposited data

Results flagged for a closer look

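The change from matched non-tumour liver differed between adenomas and carcinomas in all 6 Ugt2 genes. The adenoma change minus the carcinoma change was 4.86 for Ugt2b1, 5.55 for Ugt2b5, 5.75 for Ugt2b34, 5.55 for Ugt2b35, 5.30 for Ugt2b36 and 5.24 for Ugt2a3 on the log2 scale (limma, adjusted p from 5.5e-08 to 0.00015, 5 arrays in each of 4 groups). Of all genes, 23.3% were higher by the same test. Diet and tumour type cannot be told apart in this difference. Arrays that stood apart were sought by the gap to the next value over the range, with a critical value of 0.71. This flagged no array in 24 sets of 5 values, 1 for each member and group. With 5 values the rule finds only wide gaps.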

How the results depend on the processing

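Of 1140 values of the 6 members under other settings, 1108 kept their direction and side of the threshold, 26 passed it only under the other setting, 0 lost it and 6 changed sign. The alternatives were trend and robust eBayes, median centring, quantile normalization, array weights, the replicate number as a block, only the groups compared, another choice of probe set, a filter on dim genes, and arrays left out.

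With phenobarbital, 39 genes passed the test over all groups, 205 with array weights and 265 with only the groups compared, where 2 members passed in place of 0. Leaving out 1 array gave 23 to 250 genes over both fits, with 0 to 2 members: 25 and 23 without phenobarbital arrays 2 and 3 over all groups and, with only the groups compared, 126, 127, 173 and 167 without phenobarbital arrays 1 to 4 and 158 without untreated array 1; without untreated arrays 3 and 4 the fit of only the groups compared gave 344 genes and 2 members. Leaving arrays out of that fit was chosen after seeing the data.

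Signs changed only in uncalled values near 0. For Ugt2a3 with phenobarbital the difference was 0.01 without untreated array 4 or phenobarbital array 5, and 0.04 without untreated arrays 3 and 4, in both fits and for its probe set. The change of Ugt2b1 minus that of Ugt2b36 with phenobarbital ran from -0.04 to 0.05 without 1 array, and that of Ugt2b34 minus Ugt2b35 was 0.01 with the mean of all probe sets. In carcinomas without 1 array, Ugt2b5 minus Ugt2b35 ran from -0.33 to 0.11, Ugt2b5 minus Ugt2b36 from -0.28 to 0.10, Ugt2b34 minus Ugt2b36 from -0.01 to 0.31, and Ugt2b35 minus Ugt2b36 from -0.05 to 0.08. Without carcinoma array 2, Ugt2a3 also fell further than Ugt2b5 by 1.73 and than Ugt2b35 by 1.62 (exact permutation, adjusted p = 0.013 each). The cause was not tested.

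Samples with the same number did not deviate together (r from -0.11 to 0.13 over genes), so the numbers were not taken as pairs. With the replicate number as a block the genes called were 39 with phenobarbital, 12415 in carcinomas (12544 without it) and 4312 in adenomas (4470), and the members called stayed 0, 6 and 2. The planned comparison of protein sequences was not run.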
